A study of Mus musculus with 4 samples.

Results

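Ileal RNA was read for 10 genes known from fat cells: Plin1, Plin4, Cidec, Lpl, Fabp4, Car3, Adipoq, Lep, Retn and Cfd. They were picked by name, with earlier results of these arrays known, out of 20886 gene symbols on the array, and they were read by 13 of its 39429 probes. Metformin and control samples had already been compared when they were picked, so their values are described here and not tested. Ileum, the last stretch of the small intestine, was taken from male C57BL/6J mice aged 10 weeks, 2 samples being controls and 2 coming from mice given metformin by mouth at 1000 mg/kg. Metformin is a glucose-lowering biguanide. The sources used here state neither its duration nor a vehicle for the controls, and nothing says that samples of 1 group were separate animals, so any p-value reflects the scatter of these particular samples, possibly technical only. Total RNA, labelled with Cy3, was hybridised to 4 one-colour Agilent arrays on 1 slide, read in 1 scan. Controls lay at positions 1 and 2 of the slide and metformin samples at positions 3 and 4, so position and treatment cannot be told apart.

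An adipocyte stores triglyceride in a large droplet whose surface is coated by perilipins, which hold lipases off the fat until a hormonal signal arrives. It takes up fatty acids that lipoprotein lipase frees from circulating lipoproteins, carries them on a binding protein, and secretes hormones, the adipokines, that report on fat stores to the brain, liver and muscle. In the gut such cells lie mainly in the mesentery along the outer edge of the intestinal tube, while the absorptive cells lining the lumen make short-lived droplets of their own from dietary fat. In a piece of whole tissue, fewer fat cells and less RNA per fat cell cannot be told apart. Nor can either be told from a change in other cells that make these genes.

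Both metformin samples were lower than both controls for 8 of the genes: Plin4 by 12.3-fold, Adipoq by 11.7-fold, Cfd by 9.17-fold, Retn by 7.81-fold, Fabp4 by 6.86-fold, Plin1 by 6.46-fold, Car3 by 6.31-fold and Lpl by 5.94-fold. Cidec did not follow them, and Lep was too dim to be measured in both groups. Of all 21649 genes and transcripts tested, 8.57% were lower without overlap between the groups, 2.32% by at least 2-fold and 0.702% by at least 4-fold, which all 8 were. Only 0.628% were at least 2-fold higher without overlap. As the genes were picked with this contrast known, nothing is read from those shares. The median difference of the 10 genes, metformin minus control on the log2 scale, was -2.73, against 0.06 over all genes tested.

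Start-site sequences are shown for genes on both sides of that split, to set Cidec, which did not follow the rest, beside Plin1, Lep and Adipoq. RefSeq promoter tables of build GRCm38.p6 gave 8 windows for 7 of the genes, Cidec having 2, and each window is the 250 bases before a transcription start. Lpl, Fabp4 and Car3 were not matched. Each sequence reads 5′ to 3′ on the gene's own strand. Capitals mark TTGCNNAA, the core of sites bound by the C/EBP factors of fat cell differentiation. All motifs were searched on both strands.
Plin1, chr7:79732777-79733026, minus strand: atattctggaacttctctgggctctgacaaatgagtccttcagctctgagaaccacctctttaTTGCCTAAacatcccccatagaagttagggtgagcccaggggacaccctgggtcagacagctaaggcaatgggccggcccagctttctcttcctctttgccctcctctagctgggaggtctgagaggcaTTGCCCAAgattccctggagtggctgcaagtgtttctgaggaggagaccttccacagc
Lep, chr6:29059971-29060220, plus strand: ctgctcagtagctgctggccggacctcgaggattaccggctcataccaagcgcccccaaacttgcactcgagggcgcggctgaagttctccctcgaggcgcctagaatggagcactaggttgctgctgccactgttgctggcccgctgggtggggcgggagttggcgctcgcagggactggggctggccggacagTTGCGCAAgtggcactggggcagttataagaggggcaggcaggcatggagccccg
Cidec, upstream start, chr6:113435761-113436010, minus strand: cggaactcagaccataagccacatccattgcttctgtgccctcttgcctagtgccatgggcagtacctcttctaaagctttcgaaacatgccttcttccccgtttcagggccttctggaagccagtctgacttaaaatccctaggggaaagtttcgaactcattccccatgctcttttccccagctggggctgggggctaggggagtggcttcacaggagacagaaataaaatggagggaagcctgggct
Cidec, downstream start, chr6:113434765-113435014, minus strand: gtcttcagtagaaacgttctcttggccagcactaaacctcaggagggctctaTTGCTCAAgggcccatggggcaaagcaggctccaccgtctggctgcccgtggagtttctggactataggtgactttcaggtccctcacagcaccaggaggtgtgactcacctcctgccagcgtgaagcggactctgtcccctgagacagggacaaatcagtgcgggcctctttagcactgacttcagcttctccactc
Adipoq, chr16:23146286-23146535, plus strand: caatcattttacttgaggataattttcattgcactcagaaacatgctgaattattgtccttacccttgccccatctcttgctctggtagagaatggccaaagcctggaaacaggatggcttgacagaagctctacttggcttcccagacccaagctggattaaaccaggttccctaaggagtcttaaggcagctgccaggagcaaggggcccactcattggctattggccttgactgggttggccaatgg
Plin1 held TTGCNNAA at 187 and at 58 bases before its start, Lep at 55 bases, and the downstream start of Cidec at 198 bases. Among 32851 mouse windows of this length 9.56% held it. The Lep match was the full palindrome TTGCGCAA, a special case of the same motif, found in 0.164% of windows. The upstream Cidec window and those of Adipoq, Retn, Cfd and Plin4 held no such match. CCAAT, the box bound by NF-Y, lay at 34, 27 and 7 bases before the Adipoq start and at 18 bases before that of Plin4, against 33.8% of all windows. The direct repeat read by PPAR and RXR dimers, AGGNCA copied again after 1 free base, was in 0 of the 8 windows and in 0.338% of all. The box TATAAA was likewise in 0 of the 8, against 12.4% of all. These are matches of letters and say nothing of binding.

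Array quality is given in ranges. The 75th percentile of probe signal, to which each array was scaled, lay between 866 and 1454 scanner units, and between 65.2% and 69.1% of probes were well above background. No spot was saturated. With limma and Benjamini-Hochberg adjustment over all genes, 0 of 21649 passed an adjusted p of 0.05 (0.00%), while 347 had an unadjusted p under 0.05, 272 of them lower with metformin (1.26%) and 75 higher (0.346%). Without overlap, 1855 genes were lower (8.57%) and 2672 higher (12.3%). Levels below are log2 signals after subtraction of that percentile, so 0 is the level of that percentile and -1 is 2-fold under it. Levels of different genes are not compared, since probes differ in brightness.

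Droplet proteins split. Plin1 (probe A_51_P244497), the perilipin that governs access of lipases to the droplet of white fat cells, stood at -4.93 and -3.98 in controls 1 and 2 and at -6.50 and -7.80 in metformin samples 1 and 2. Both metformin levels lay below both controls, and the last was not well above background. The difference was -2.69 (SE 0.61, n = 2 per group). In scanner units its signals were only 30.1, 91.9, 9.56 and 4.80, for which the scanner software gave errors of 12.5%, 10.2%, 17.2% and 29.7%. At such signals the size rests on background handling: the Plin1 difference was -0.63 with a normexp background correction and -1.39 in the deposited table, where background was not subtracted.

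Plin4 (probe A_51_P495780), a perilipin that coats small and growing droplets, stood at -0.18 and -1.56 in the controls and at -4.32 and -4.66 with metformin. The controls were far above both metformin samples, with a gap of 2.76 between the lowest control and the highest metformin value, wider than for any other of the genes. The difference was -3.62 (SE 0.55), and all 4 arrays were well above background. Plin4 alone among the 8 lower genes was highest in control 1.

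Cidec, which fuses small droplets into large ones, stood at 3.29 and 2.76 in the controls and at 4.46 and 2.72 with metformin. Its groups overlapped, because metformin 1 was the highest and metformin 2 the lowest of the 4. The mean was 1.48-fold higher with metformin, a difference of 0.57 (SE 0.67). Without metformin 1 it was -0.30 and without metformin 2 it was 1.43. A dimmer Cidec probe gave the same order of arrays, at -0.66, -0.90, 0.77 and -1.06. The files pair both Cidec probes with the same transcript record.

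Its paralogs and the other perilipins were measured as well. Plin2, which coats droplets in most cell types, stood at 3.29 and 3.93 in the controls and 3.42 and 4.33 with metformin, with a difference of 0.26 (SE 0.47). Plin3, a cytosolic perilipin, differed by 0.45 (SE 0.49) and Plin5, typical of oxidative tissue, by -0.28 (SE 0.36). Cideb, the relative of Cidec known for lipoprotein lipidation in liver and gut, stood at 5.74 and 5.20 in the controls and 6.43 and 5.55 with metformin. Like Cidec, Cideb was highest in metformin 1, and its groups overlapped. Cidea, a relative found in brown fat, stood at -2.12, -3.97, -5.00 and -3.31, again with overlap. None of these 5 relatives was separated between the groups, whereas Plin1 and Plin4 were.

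**Figure D1:**
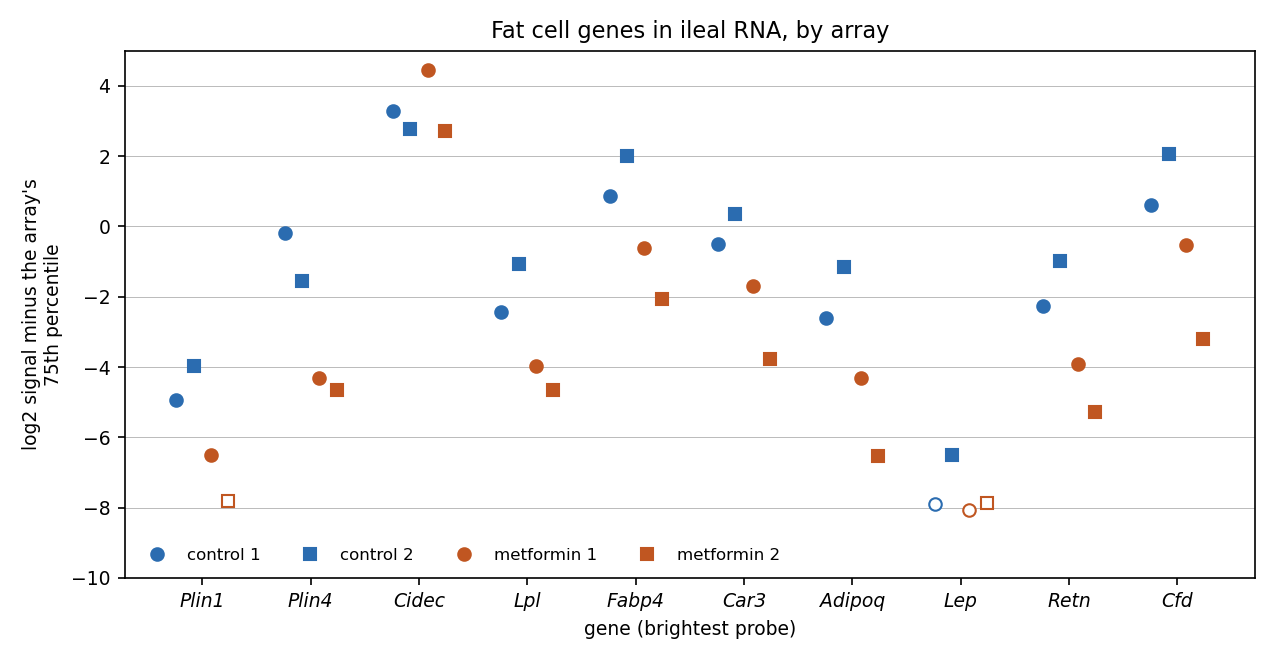
Log2 signal after subtraction of each array's 75th percentile (vertical axis) of the brightest probe of each of the 10 genes (horizontal axis), 1 point per array, blue for controls and orange for metformin, with hollow points where the probe was not well above background. For 8 genes both orange points lie below both blue points, for Cidec metformin 1 is the highest point, and for Lep only control 2 is above background.

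Fatty acid handling was represented by Lpl, Fabp4 and Car3. Lpl, the lipase that frees fatty acids from lipoproteins, stood at -2.43 and -1.06 in the controls and at -3.96 and -4.66 with metformin (probe A_51_P259296). The groups were apart by 1.54, and the difference was -2.57 (SE 0.58). A dimmer Lpl probe stood at -5.48 and -3.52 in the controls and was not well above background in either metformin sample, which makes it at least 6.26-fold lower. With the normexp correction the brighter Lpl probe differed by -1.64.

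Fabp4, the fatty acid carrier of fat cells, stood at 0.88 and 2.01 in the controls and at -0.62 and -2.05 with metformin (probe A_51_P336833). Each metformin value was below each control, with a gap of 1.50, and the difference was -2.78 (SE 0.67). Its signal was far above background, and over the 16 alternatives to the setting reported the Fabp4 difference ranged from -3.49 to -2.06. Car3, a carbonic anhydrase abundant in fat and slow muscle, stood at -0.51 and 0.35 in the controls and at -1.70 and -3.78 with metformin (probe A_51_P431329). The order of the arrays was the same as for Fabp4. The Car3 difference of -2.66 (SE 0.81) was -1.61 without metformin 2.

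Most measured relatives of these genes overlapped between the groups. Fabp1 and Fabp2, the carriers of absorptive cells, differed by 0.79 (SE 0.96) and 0.24 (SE 0.36). For Fabp1 the difference was -0.54 without metformin 1 and 2.12 without metformin 2. The carrier of ileal bile acids, Fabp6, stood at 8.94 and 8.29 in the controls and at 4.16 and 8.69 with metformin, low in metformin 1 alone. Fabp5 differed by 0.14, Fabp12 by 0.12 and Fabp3 by -0.49, so none of the 6 measured Fabp relatives was separated between the groups. Of 12 measured carbonic anhydrases, Car8 and Car11 were lower without overlap (-0.67 and -0.61) and Car4 and Car13 higher (0.61 and 0.23), none passing limma's adjusted test. The Car8 difference was -0.30 without metformin 1 and -1.04 without metformin 2. The remaining 8, Car1, Car2, Car5a, Car7, Car9, Car12, Car14 and Car15, overlapped. Of 4 measured lipases of the Lpl and acid lipase families, Lipf was higher without overlap, at 0.93 (SE 0.30), though above background on only 1 control array. Pnliprp1, Pnliprp2 and Lipa overlapped.

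Secreted products of fat cells came next. Adipoq, which encodes adiponectin, an insulin-sensitising hormone made almost only by fat cells, stood at -2.60 and -1.14 in the controls and at -4.31 and -6.54 with metformin (probe A_51_P458451). The groups were separated by 1.70, and the metformin samples themselves lay 2.23 apart. The difference was -3.55 (SE 0.94), and -1.75 with the normexp correction. The signal in metformin 2 was 11.5 scanner units with an error of 18.8%.

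Retn, which encodes resistin, stood at -2.25 and -0.99 in the controls and at -3.91 and -5.27 with metformin (probe A_55_P1984806). A second Retn probe gave -2.10, -0.99, -4.11 and -6.75. Both probes were well above background on all 4 arrays and placed the arrays in the same order. The differences were -2.97 (SE 0.68) by the first and -3.88, or 14.7-fold, by the second. Of its relatives, Retnla, a resistin-like protein of type 2 immunity, was lower without overlap, at -3.72 and -4.18 against -6.25 and -5.98, a difference of -2.17 (SE 0.33, limma unadjusted p = 0.0019, not passing after adjustment). Retnlg, found in bone marrow and white cells, differed by 0.84 (SE 0.66) with overlap, and by 0.08 to 1.61 with 1 array left out, the lowest without control 1 and the highest without control 2. Retnlb did not pass the filter on dim probes.

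Cfd, which encodes adipsin, the protease that starts the alternative complement pathway, stood at 0.61 and 2.05 in the controls and at -0.54 and -3.19 with metformin (probe A_51_P156955). Its metformin samples were 2.65 apart, the widest spread within a group among the 8 lower genes. The difference of -3.20 (SE 1.05) was -1.87 without metformin 2. Lep, which encodes the satiety hormone leptin, was spotted 10 times on each array (probe A_52_P374882). All 10 Lep spots were well above background in control 2, against 0 in control 1 and 1 in each metformin sample. Its levels of -7.90, -6.49, -8.06 and -7.86 are near the limit of the array. No fold or bound is given for Lep, because just 1 of the 2 controls was measured and neither metformin sample was. The groups also overlapped, metformin 2 lying above control 1. The Lep difference of -0.76 was 0.11 with the normexp correction.

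Among themselves the genes followed 1 profile over the 4 arrays. In 7 of the 9 that passed the filter on dim probes the order from high to low was control 2, control 1, then metformin 1 and last metformin 2. The exceptions were Plin4, whose controls were reversed, and Cidec. Of all genes tested 0.744% had that order. It puts both controls above both metformin samples, the contrast known when the genes were picked, so nothing is read from that share. Those 7 genes were higher in control 2 than in control 1 by 0.86 to 1.46 on the log2 scale. Arrays of the same treatment therefore differed too. Of the 9 genes, 5 were at least 2-fold higher in control 2 than in control 1, against 5.91% of all genes tested. At least 2-fold higher in metformin 1 than in metformin 2 were 7 of the 9, Cidec included and Lpl and Plin4 not, against 11.8%. Summed over the 8 lower genes with the 75th percentile set to 1, the level was 5.54 and 11.3 in controls 1 and 2 and 1.89 and 0.544 in metformin samples 1 and 2. The sum thus differed within each treatment as well as between the treatments. Its largest parts on every array were Fabp4 and Cfd, which had the brightest probes of the 8, so it mostly follows those genes.

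Distance was taken to the median profile of the same 9 genes, each gene centred on its own mean over the 4 arrays. These genes set that median themselves and were picked with the contrast known. Their own nearness to it is therefore partly built in, and nothing is read from it. Fabp4 lay at a root-mean-square distance of 0.02, Plin1 at 0.09, Retn at 0.11, Car3 at 0.25, Lpl at 0.30, and Adipoq and Cfd both at 0.49. Plin4 lay at 1.04, with 141 other named genes nearer, and Cidec at 1.78, farther than the median of 1.60 over the 14574 named genes compared. The nearest gene outside the group was Mrap, the accessory protein of the ACTH receptor, which is abundant in fat and adrenal, at 0.18. Mrap stood at -4.85, -3.48, -6.53 and -7.55, and Hp, the haemoglobin-binding plasma protein haptoglobin, which fat also makes, followed at 0.37 with -2.35, -0.44, -4.03 and -4.96. Next came Mmrn1 (0.50), Tnc (0.52), Palmd (0.52), Cyp2e1 (0.54), Thrsp (0.57), Col5a3 (0.58), Npr3 (0.59) and Tbx1 (0.62). Tnc, Palmd and Npr3 were not well above background in either metformin sample, and Mrap and Col5a3 were so in 1 of them only. Their distances rest partly on such dim values. The distance is over 4 arrays only and carries no test.

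**Figure D2:**
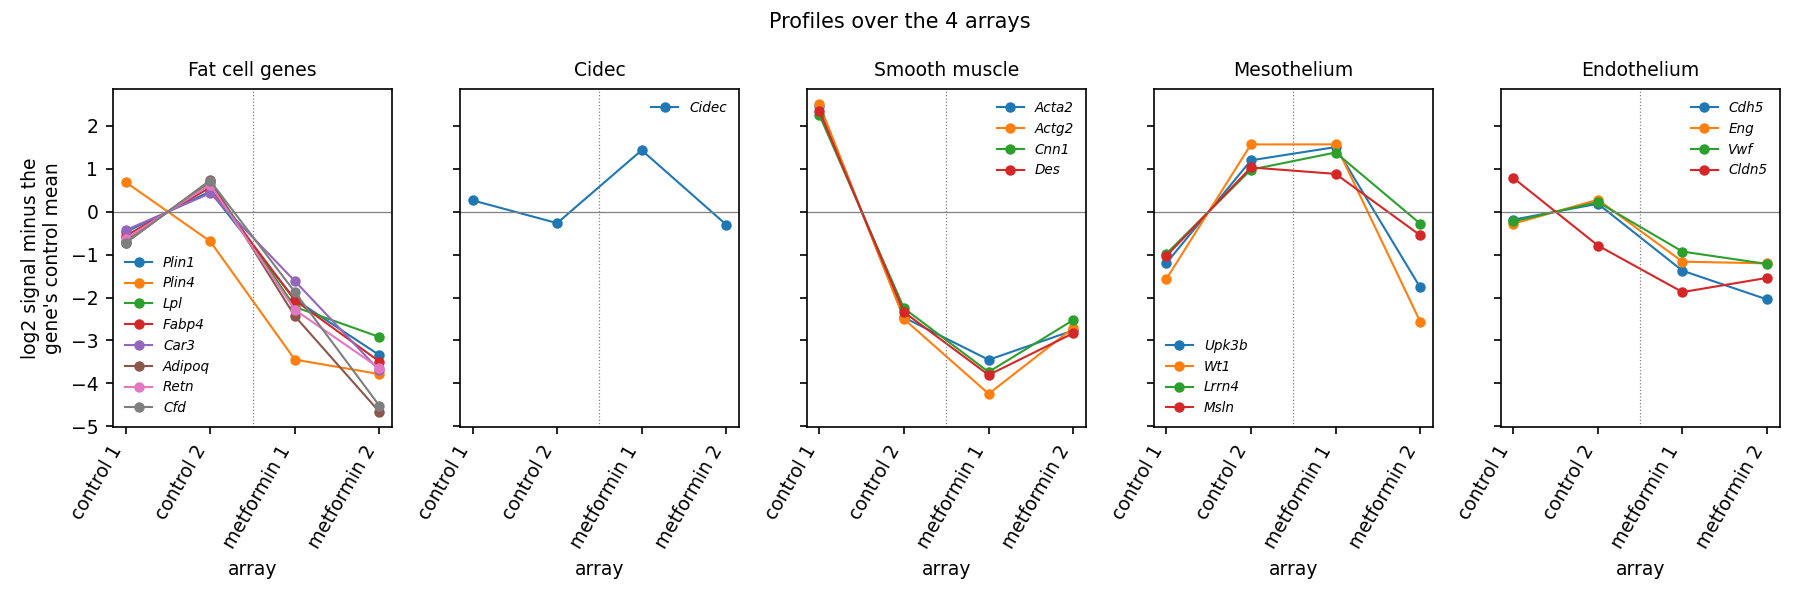
Log2 signal minus each gene's control mean (vertical axis) on the 4 arrays (horizontal axis) for the 8 lower fat cell genes, Cidec, and 4 genes each of smooth muscle, mesothelium and endothelium, 1 line per gene, with a dotted line between the treatments. The fat cell genes other than Plin4 go down from control 2 to metformin 2, and smooth muscle genes are high in control 1 alone. The 4 mesothelial genes drawn, picked after their values were seen, are high in control 2 and metformin 1. Of the endothelial markers, Pecam1 and Kdr are not drawn, and their means were higher with metformin.

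Other genes of fat biology were counted from 10 lists chosen with earlier results of these arrays known. Of their 106 genes 92 were measured, 24 were lower without overlap (26.1%, against 8.57% of all genes), 7 were higher without overlap, and 0 passed limma's adjusted test, with 12 at an unadjusted p under 0.05. The median difference over the 92 was 0.00.

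Of these 10 lists, that of genes known mainly from adipocytes had the lowest median. Marker lists of fibroblasts and smooth muscle, described further on, had lower medians still, at -2.04 and -3.15. Of 20 such genes 18 were measured, 10 were lower and 0 higher without overlap, and the median difference was -1.30. That median was -0.43 with the normexp correction, -0.79 in the deposited table, -0.53 in it after scaling and -0.88 for probes above background on all 4 arrays. Thrsp, a lipogenic regulator, stood at -2.44, -1.33, -5.01 and -6.62 and was 15.2-fold lower, a difference of -3.93 (SE 0.71). Mrap was 7.35-fold lower (-2.88, SE 0.64), but it was not well above background in metformin 2, so the size is uncertain. Npr3, the clearance receptor for natriuretic peptides, was not above background with metformin and was at least 1.99-fold lower. Aoc3, an amine oxidase of fat cells that smooth muscle also makes, stood at -0.11, -2.61, -4.63 and -4.95, and its difference of -3.43 (SE 0.89) was -2.18 without control 1. Of the 10 lower genes, Thrsp, Mrap, Adig and Cyp2e1 were higher in control 2 than in control 1. Npr3, Aoc3, Lgals12, Mest, Slc2a4 and Sncg were higher in control 1. Like Npr3, Lgals12 and Mest were not above background in either metformin sample. The Sncg difference of -2.22 was -0.56 without control 1. The 4 with a higher mean, Pparg, Gpd1, Lipe and Aqp7, are named after their values were seen. Each of these overlapped between the groups.

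Droplet, lipolysis and lipoprotein genes were mixed. Of 10 measured droplet genes 2 were lower and 0 higher without overlap, with a median of -0.19. G0s2, an inhibitor of the lipase Pnpla2, differed by -0.87 (SE 0.29), and Cavin1, a coat protein of caveolae, by -2.13 (SE 0.76), which was -1.08 without control 1. In the lipolysis list 4 of 9 were lower and 0 higher without overlap, with a median of -0.73. These were G0s2, Prkar2b (-1.21, SE 0.37), Mgll (-0.79) and Pde3b (-0.75). Without metformin 1 the last pair differed by -0.27 and -0.33. Among 8 measured genes that handle Lpl or its products only Gpihbp1, its anchor on capillary endothelium, was lower without overlap, at -0.58 (SE 0.31) and at -0.36 without metformin 2. Cd36, a fatty acid transporter of fat and gut, stood at 1.74 in metformin 1 and between -4.34 and -2.61 on the other arrays.

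Regulators of fat cell identity were not among the lower genes. Of 10 measured, 0 were lower without overlap and 1, Rxra at 0.34 (SE 0.31), was higher without overlap, and the median was 0.25. Pparg, the master regulator of fat cells, which gut epithelium also makes, stood at 0.23 and 1.38 in the controls and at 1.60 and 1.09 with metformin. Its difference of 0.54 (SE 0.50) was -0.03 without control 1 and 1.11 without control 2. Srebf1, a regulator of lipid synthesis, differed by 0.64 (SE 0.48), 0.07 without metformin 1 and 1.22 without metformin 2. Cebpd differed by 0.47 (SE 0.55), and none of the 3 was separated between the groups. In triglyceride and fatty acid synthesis 6 of 16 genes were lower and 3 higher without overlap, with a median of -0.11. The desaturase Scd1 differed by -1.28 (SE 0.41), -0.83 without control 2. Slc2a4, the insulin-responsive glucose transporter, stood at 0.47, -3.46, -4.48 and -4.65, and its difference of -3.06 was -1.10 without control 1. Pck1, the gluconeogenic enzyme, was higher by 1.10 (SE 0.47), and by 0.70 without control 1 or 0.69 without metformin 1.

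Other hormones, receptors and complement genes were mixed or overlapped. Among 11 measured adipokines 3 were lower and 3 higher without overlap, with a median of 0.20. Rarres2, which encodes chemerin, differed by -1.45 (SE 0.68), -0.58 without metformin 2, and Sfrp5, a Wnt inhibitor, by -0.90 (SE 0.43), -0.44 without control 1. Metrnl was higher by 0.52 (SE 0.31), 0.32 without control 1. None of the 5 adipokine receptors was separated, the adiponectin receptors Adipor1 and Adipor2 differing by 0.10 (SE 0.29) and 0.31 (SE 0.37). The same held for 7 measured genes of the alternative complement pathway, in which Cfb, the substrate of adipsin, differed by 0.38 (SE 0.37). Of 8 measured genes of heat-producing fat 1 was lower without overlap: Cox8b, a cytochrome oxidase subunit of muscle and brown fat, was at least 8.48-fold lower. Ucp1, which defines brown fat, was not well above background on any array.

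**Figure D3:**
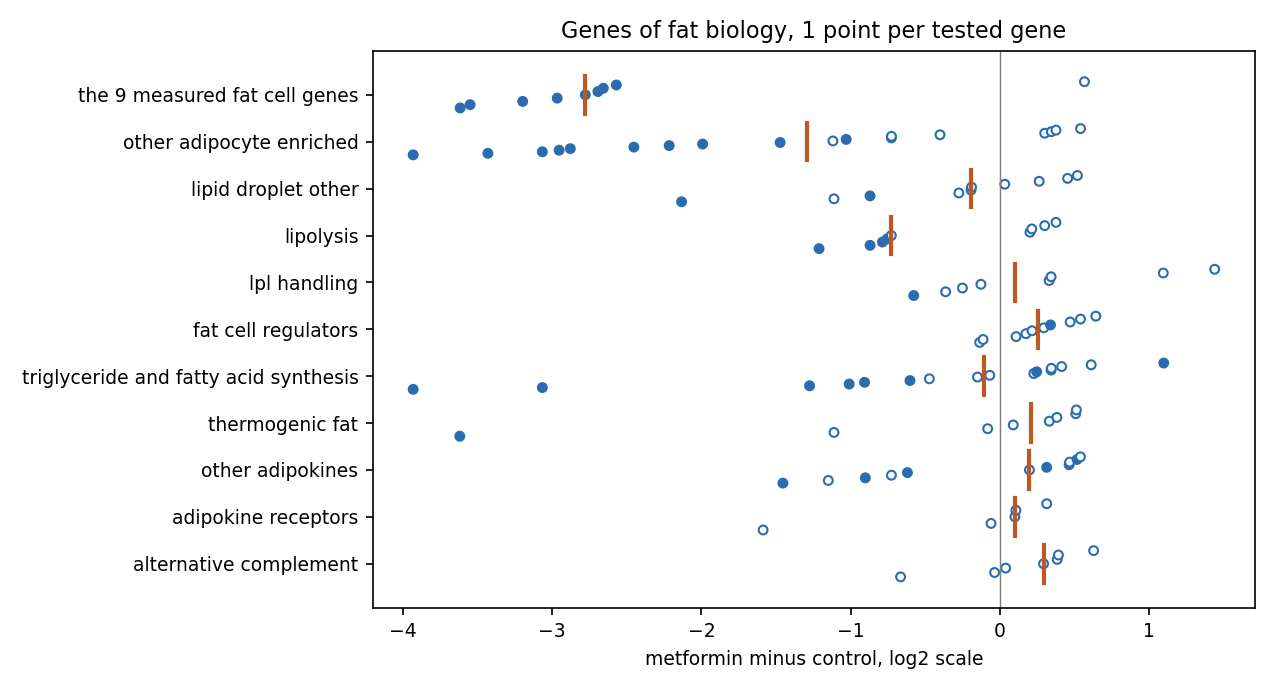
Difference between metformin and control means on the log2 scale (horizontal axis) for each measured gene of 10 fat biology lists and the 9 measured fat cell genes (rows), with filled points where the groups did not overlap and an orange bar at the list's median. The median is -2.78 for the fat cell genes and -1.30 for other adipocyte-enriched genes, and it lies between -0.73 and 0.29 for the other lists.

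Markers of other cells of the gut wall were set beside the 8 genes. Fibroblast and matrix markers were lower without overlap in 8 of 11, with a median difference of -2.04. Sparc differed by -2.09 (SE 0.49) and Dcn by -1.82 (SE 0.50), while Gsn and Fbln1 had a higher mean. The summed level of the list was 61.5 and 48.6 in the controls and 40.0 and 42.3 with metformin. That sum leans on bright probes such as that of Gsn, at 4.39, 4.85, 4.43 and 5.14 on the 4 arrays. Blood endothelial markers were lower without overlap in 5 of 8, Cdh5 by -1.71 (SE 0.38) and Eng by -1.18 (SE 0.33), with sums of 5.67 and 3.98 against 5.21 and 4.08. Lymphatic markers were lower without overlap in 2 of 4, Mmrn1 and Pdpn. The Pdpn difference of -1.11 was -0.44 without control 2. Lyve1 (-0.54) and Prox1 (0.17) overlapped between the groups. Epithelial markers were lower without overlap in 0 of 10, with sums of 1220 and 1029 against 1402 and 1296. Their part in the fat cell values was not tested.

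Smooth muscle markers had a lower mean in 8 of 8, without overlap in 6, but another shape: the sum was 202 in control 1 and from 5.43 to 8.88 on the other arrays. Acta2 stood at 4.93 in control 1 and between -0.99 and 0.00 on the other arrays, and its difference of -3.11 (SE 1.69) was -0.64 without control 1. The 7 fat cell genes other than Plin4 were lower in control 1 than in control 2, the opposite order, while Plin4, Aoc3, Slc2a4 and Cavin1 were highest in control 1. Without control 1 the Plin4 difference was -2.93. Of the mesothelial markers 3 of 8 were measured and 0 were lower without overlap. Skeletal muscle markers were measured in 2 of 8, with sums of 3.41 and 9.32 in the controls and 0.229 and 8.04 with metformin, low in metformin 1 alone through Acta1, while Myh4, Myh2, Actn3 and Tnnt3 were not well above background on any array. Liver markers were measured in 2 of 5, Apoh and Serpina1a, with sums of 17.7 and 19.4 against 6.90 and 26.6, and Alb was not well above background on any array. In neither list were the groups separated.

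**Figure D4:**
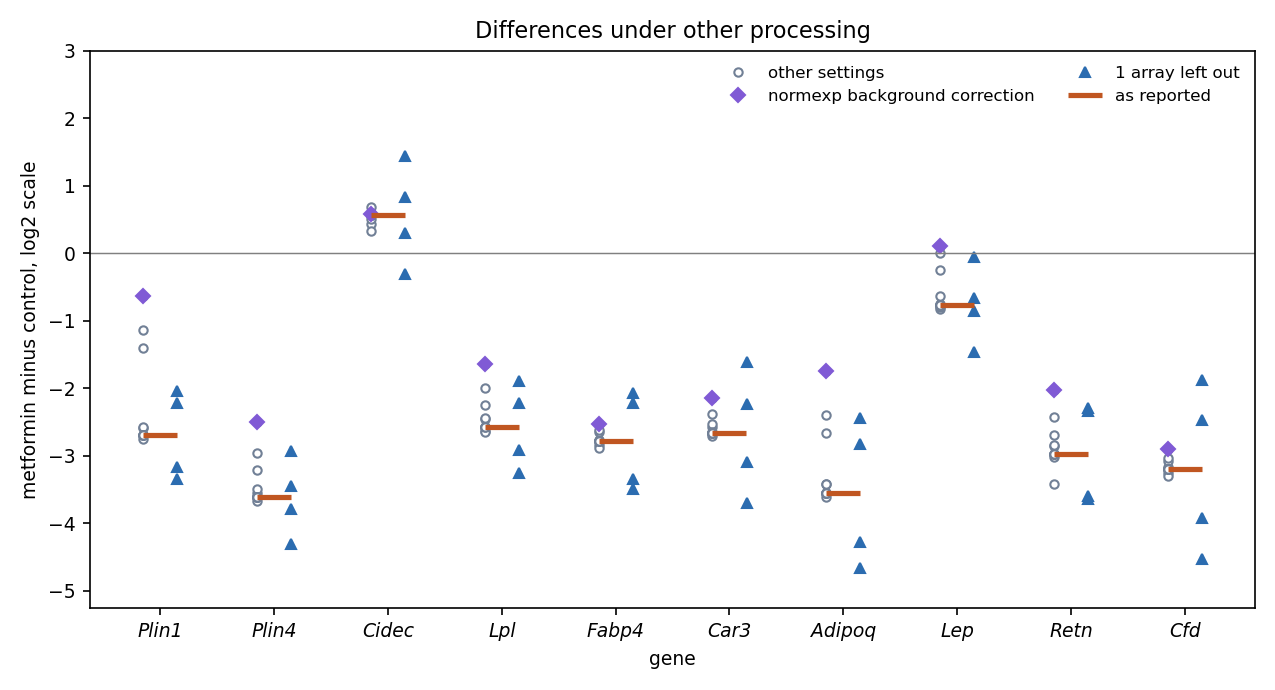
Difference between metformin and control means on the log2 scale (vertical axis) for each of the 10 genes (horizontal axis) as reported (orange bar), with normexp background correction (diamond), under other settings (circles) and with 1 array left out (triangles). The 8 lower genes stay below 0 under each of these settings, from -4.66 for Adipoq to -0.63 for Plin1, while Cidec and Lep have values on both sides of 0.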

How the data were processed

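Scanner intensity values, on a linear scale, were deposited as Agilent Feature Extraction 10.7.3.1 output, background-subtracted and detrended within each array, per the file headers. The deposited table of the whole series equals the raw median spot intensity for all 39030 single-spot probes and served only as an alternative. The members and all gene lists were chosen with earlier results of these data known. Signals were put on the log2 scale, flagged spots left out, spots of a probe averaged, and each array's 75th percentile over non-control probes subtracted. Probes well above background on both arrays of a group were kept (26441), and the brightest probe of a gene was tested, 21649 genes and transcripts in all, 15358 with a symbol from the RefSeq table of GRCm38.p6. Standard errors come from the moderated linear model of limma 3.58.1 (R 4.3.3), fitted over all genes with 2 residual and 2.43 prior degrees of freedom, two-sided, with Benjamini-Hochberg adjustment. The fit was tested on simulated data. The number of arrays, 2 per group, limits the precision. Where no array of a group was above background but both arrays of the other group were, folds are bounds. The dim group was then set on each array to the larger of its own signal and the weakest signal that counted as above background. Fat cell genes are named whatever their value. Of each list up to 4 measured genes of smallest unadjusted p are named, as are measured paralogs and the 10 named genes nearest in profile. The planned normexp alternative (offset 50) used median instead of mean spot signals, as no mean signal column was used here. Other alternatives were 3 scalings, the deposited table, other filters, all probes of a gene, flagged spots kept, trend and robust moderation, a replicate block and leaving out each array.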

Additional observations from a re-analysis of the deposited data

How the results depend on the processing

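The count of fat cell genes lower without overlap was 8 under every alternative that kept all 4 arrays, except 7 for probes above background on all of them, which drops Plin1. It was 8 to 9 with 1 array left out, and the median difference then ranged from -3.57 to -2.05. Under every alternative 0 genes passed limma's adjusted test. Counts over all genes depended more on the processing. Genes with an unadjusted p under 0.05, 347 as reported, numbered 114 with normexp, 147 in the deposited table after scaling, 522 with no filter, and 184 to 1357 with 1 array left out. Genes at least 2-fold lower without overlap, 502 as reported, numbered 116, 197 and 817 in the same 3 settings and 855 to 1779 with 1 array left out. The share lower without overlap, 8.57% as reported, was 5.27% with normexp, 5.14% with median scaling, 17.8% in the deposited table unscaled, and 22.0% to 31.7% with 1 array left out. Higher genes made up 21.3% of 2-fold differences, but 34.0% with median scaling, 10.1% with normexp, 2.16% in the deposited table unscaled, 10.0% in it after scaling and 9.77% for probes above background on all 4 arrays. With 1 array left out the share was 28.6% to 46.4%, the highest without metformin 2, and 41.4% without control 1. Median scaling put the median gene at 0.19 and the unscaled table at -0.17. Without 1 array 34 to 39 of the fat biology genes were lower without overlap, most without control 1, and of other adipocyte-enriched genes 12, against 6 for probes above background on all 4 arrays. The last alternative tested fewer genes. Leaving out an array removes values that could overlap, so counts without overlap that have no fold minimum can only stay or rise. Otherwise the cause was not tested. With the replicate number as a block, 1566 genes had an unadjusted p under 0.05 and 0 passed. Same-numbered samples deviated together (r = 0.56 over genes), but with 2 pairs the numbers do not show a pairing. Signal over background limits Plin1, Lep and the dimmer Lpl probe: Lep was 0.01 in the scaled deposited table, and Plin1 -1.13.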

Other observations

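Some mesothelial genes, singled out here after their values were seen, divided the arrays across treatments, with control 2 and metformin 1 high. Within each treatment, 7 of the fat cell genes had the same order: control 2 above control 1, and metformin 1 above metformin 2. Those 7 genes put both controls above both metformin samples, which the mesothelial genes did not. Wt1 stood at -8.43 and -5.29 in controls 1 and 2 and at -5.29 and -9.42 in metformin samples 1 and 2, and Upk3b at -8.62, -6.23, -5.92 and -9.19. Both encode products of the serosal covering of the gut and were well above background on 1 array of each group. Msln, measured on all 4 arrays, followed with -4.19, -2.12, -2.27 and -3.70. Not every marker of the same list shared this division. Upk1b stood at -1.67, -2.20, -2.36 and -1.46, the reverse order in both groups. Gpm6a stood at -6.20, -6.01, -6.16 and -7.75, low in metformin 2 alone.

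Haemoglobin genes also divided the arrays that way. Hba-a1 stood at 2.45 and 3.68 in the controls and at 4.10 and 2.93 with metformin, and none of the 5 red cell genes was separated between the treatments. Macrophage markers were higher without overlap in 3 of 6 measured genes, against 12.3% of all genes, with 0 passing limma's adjusted test. Among them were Adgre1 at 0.66 (SE 0.36), 0.42 without control 1 and 0.40 without metformin 1, and Mrc1 at 0.48 (SE 0.30). Lyz2, of the same list, went the other way, at -0.83, and ranged from -1.62 without control 1 to -0.03 without control 2.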
